A study of Mus musculus with 3647 samples.

Results

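The genes described here are the mouse collagen and laminin chain genes, taken as every symbol made of Col, a number, a and a number, or of Lama, Lamb or Lamc and a number. There were 55 of them among the 23420 genes of the expression tables, 44 for collagen chains and 11 for laminin chains. All 55 had at least 1 nucleus or sample with a value above 0, and their levels were not used to choose them. The study profiled single nuclei and patched cells of the thalamic reticular nucleus (TRN), a sheet of inhibitory neurons around the thalamus, and of neighbouring and other forebrain tissue. Each labelled sample is 1 sorted nucleus in a well of a 96-well plate, or 1 Patch-seq library, in which the RNA of a neuron is collected through the recording pipette.

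TRN nuclei came in 2 sort groups, those stained for the neuronal protein NeuN (28.38% of the 2653 libraries with values, on 8 plates) and those sorted on the nuclear dye alone (26.16%, on 13 plates). Plates of TRN-adjacent tissue, from thalamus and globus pallidus, gave 240 nuclei with values. GFP-positive nuclei, which the design text calls Pvalb+, came from hippocampus (440 nuclei), M2 cortex (6.332% of the 2653), somatosensory cortex (5.616%) and striatum (71 nuclei). A further 43 hippocampal nuclei of 48 carried no sort label, and 95 Patch-seq libraries completed the set, 2653 with values of 3647 labelled in all. The labelled nuclei with values made up 98.05% of the NeuN-selected, 55.56% of the unselected, 62.66% of the adjacent and 70.51% to 87.5% of the GFP-sorted ones. The labels name no animal, strain, age or transgene, which leaves each group with a single sample. No p-value was computed from the nuclei, and the spread over plates describes these libraries only.

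Collagens are secreted proteins of wound alpha chains, and laminins are cross-shaped assemblies of 1 alpha, 1 beta and 1 gamma chain. Collagen IV and laminin networks build basement membranes, which in the brain lie along blood vessels and under the pia. Other collagens form fibrils (the fibrillar collagens), sit on the surface of fibrils (the FACIT group) or span the cell membrane, and neurons are known to make several of these.

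Nuclei were clustered with all 55 genes left out, and the clusters were named as classes from marker genes. The levels of the 55 genes did not enter the classes, although genes that vary with them could. The TRN plates held GABAergic-like nuclei (79.95% of the NeuN-selected and 32.56% of the unselected nuclei), thalamic glutamatergic-like nuclei (18.73% and 8.357%), and, in the unselected sort, oligodendrocyte-like (42.65%) and astrocyte-like nuclei (11.38%, 79 nuclei). The GFP label did not hold GABAergic nuclei alone: in hippocampus 50.68% of the 440 nuclei were glutamatergic-like, 99 nuclei GABAergic-like and 40 ependymal-like, and in striatum 14 of 71 were GABAergic-like. The median number of genes detected per nucleus was 4974.5 in NeuN-selected and 4267 in unselected TRN GABAergic-like nuclei, 1989 in TRN oligodendrocyte-like and 2159 in astrocyte-like nuclei. It was 3812 to 5213 in the GABAergic-like nuclei of the GFP groups, and 6654 in Patch-seq. A share below is the percent of nuclei with a value above 0, with an exact (Clopper-Pearson) 95% interval that covers counting error only. Shares in glia rest on libraries with fewer detected genes than shares in neurons. Levels are means in TPM, transcript abundances per transcript length, scaled to one total in every library. Nuclei with at least 4 of 7 endothelial markers numbered 5 in the TRN table, 4 in the GFP table and 1 among the Patch-seq libraries.

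Of the 55 genes, 32 were found in at least 20% of the nuclei of a named class of a group, which is 58.2% of them, against 55.7% of all genes. The highest share fell in GABAergic-like nuclei for 7 of the 32 genes, in thalamic glutamatergic-like nuclei for 7, in astrocyte-like nuclei for 6 and in ependymal-like nuclei for 5. For 4 it fell in cortical and hippocampal glutamatergic-like nuclei and for 3 in striatal projection neuron-like nuclei. The other 23 genes reached 2.5% to 18.8% at most in any named class. A nucleus held a median of 5 of the 55 genes in NeuN-selected and 4 in unselected TRN GABAergic-like nuclei, 3 in TRN astrocyte-like and 1 in oligodendrocyte-like nuclei.

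**Figure D1:**
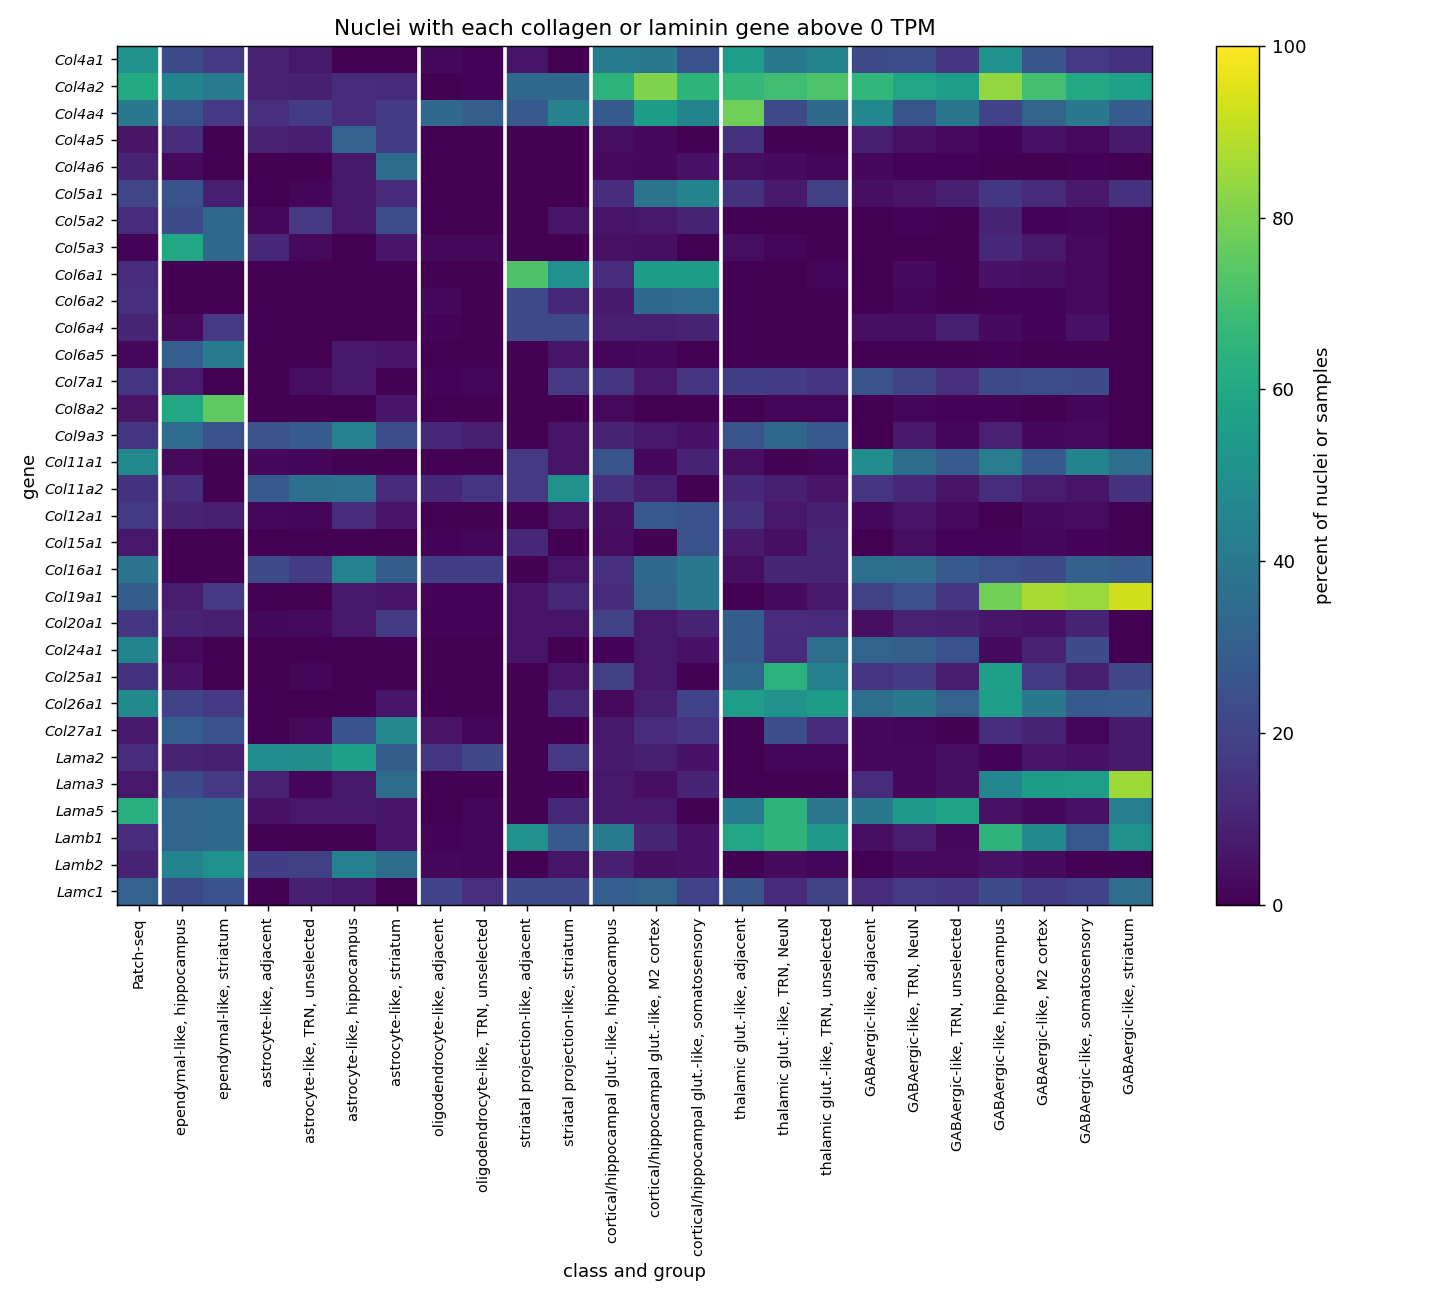
Percent of nuclei (colour, 0 to 100) with a value above 0 TPM for the 32 collagen and laminin genes (rows) found in at least 20% of a named class, by class and group (columns). Lama2 is brightest in the astrocyte-like columns, Col19a1 in the GABAergic-like columns of the GFP groups (78.8% to 92.9%), Col8a2 in the ependymal-like columns (60% and 75%) and Col6a1 in the adjacent striatal projection neuron-like column (72.2%).

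TRN GABAergic-like nuclei with Spp1 (osteopontin, a secreted matrix-binding protein) and no Ecel1 (a membrane peptidase) were compared with those with Ecel1 and no Spp1. The sets were made from the values of those 2 genes, and held 33.09% (Spp1-only) and 33.57% (Ecel1-only) of the TRN GABAergic-like nuclei, which are 31.21% of the 2653 libraries. The sets had a median of 5264 and 4618.5 detected genes. The GABAergic-like class pooled several clusters. A cluster in it had Zcchc12, Tmem130, Scg2 and Resp18 among the 10 genes most raised in it, and none of Pvalb, Sst, Gad1 or Spp1. How many of its nuclei fell in each set was not counted, and its part in the differences was not tested. The sets are therefore not taken as reticular neurons alone. A gene is called higher or lower here when its mean TPM plus 1 differs at least 2-fold, among genes whose 2 group means average at least 1 TPM. Of the 55 genes 35 could be compared: 9 were higher in Spp1-only nuclei, where the same rule called 6.92% of all genes higher, and 9 were lower, where it called 9.74% lower (16.7% in either direction). All 18 were collagens. Of the laminin genes only Lama1, Lama5, Lamb1, Lamb2 and Lamc1 could be compared, and none of them was called. The count depends on the scale: with a pseudocount of 10 TPM 5 of the genes were called, and with the difference of mean log2(TPM + 1) 4.

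The fibrillar collagens Col24a1 and Col11a1 were higher in Spp1-only nuclei on all 15 plates that held at least 5 nuclei of each set. Col24a1 (collagen XXIV alpha 1) averaged 75.98 TPM in Spp1-only and 6.49 TPM in Ecel1-only nuclei. The log2 ratio was 3.36. Of the Spp1-only nuclei 64.6% held it (interval 58.6 to 70.3%), against 7.19% of Ecel1-only nuclei (4.45 to 10.9%). Over these 15 plates, plate means of Col24a1 had a lowest, median and highest value of 13.4, 68.2 and 134.8 TPM in Spp1-only nuclei, against 0, 1.60 and 19.5 TPM in Ecel1-only nuclei. Spp1-only nuclei had the higher mean on 15 of 15 plates, although the 2 ranges of plate means met between 13.4 and 19.5 TPM.

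Col11a1, the alpha 1 chain of collagen XI, averaged 65.4 TPM in Spp1-only and 16.9 TPM in Ecel1-only nuclei, a log2 ratio of 1.89. The shares of Col11a1 were 60.9% (54.9 to 66.8%) in Spp1-only and 15.1% (11.1 to 19.9%) in Ecel1-only nuclei. Plate means ran from 34.4 over a median of 67.7 to 113.3 TPM in Spp1-only nuclei and from 0 over 20.6 to 33.4 TPM in Ecel1-only nuclei. The plate means of Col11a1 did not overlap between the sets, and again Spp1-only nuclei were higher on 15 of 15 plates. Among nuclei in which Col11a1 was found, its median level was close in the sets, 88.2 TPM in Spp1-only and 85.7 TPM in Ecel1-only nuclei. For Col24a1 the median among such nuclei was 96.0 TPM in Spp1-only and 47.3 TPM in Ecel1-only nuclei. Both genes were found together in 45.3% of Spp1-only and 1.80% of Ecel1-only nuclei, and at least 1 of them in 80.3% and 20.5%.

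The promoters of both genes, which were higher together in Spp1-only nuclei, are given below from RefSeq (GRCm38.p6). Each window runs from 250 bases before to 50 bases after the start used for it. For Col11a1 that start is not the first base of the RefSeq gene span, which is chr3:114030479. The Col24a1 window is chr3:145292222-145292521 on the plus strand, and the Col11a1 window is chr3:114030290-114030589 on the plus strand. Capitals mark matches to the CCAAT box (CCAAT or ATTGG) and the GC box (GGGCGG or CCGCCC); the TATA box (TATAAA or TTTATA) was searched as well, each motif on both strands.
Col24a1 promoter: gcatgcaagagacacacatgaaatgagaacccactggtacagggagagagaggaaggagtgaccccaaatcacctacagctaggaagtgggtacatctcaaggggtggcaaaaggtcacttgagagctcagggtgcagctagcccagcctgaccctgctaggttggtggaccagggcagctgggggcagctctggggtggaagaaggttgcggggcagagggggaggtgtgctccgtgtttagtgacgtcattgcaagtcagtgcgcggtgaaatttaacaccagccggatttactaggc
Col11a1 promoter: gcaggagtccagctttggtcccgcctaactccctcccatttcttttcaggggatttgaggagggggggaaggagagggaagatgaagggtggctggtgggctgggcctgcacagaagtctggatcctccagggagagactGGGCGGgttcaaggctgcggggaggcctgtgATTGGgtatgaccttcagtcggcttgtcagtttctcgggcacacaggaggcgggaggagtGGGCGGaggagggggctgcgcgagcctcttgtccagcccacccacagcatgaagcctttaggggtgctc
The Col24a1 window holds 6 CpG pairs and no match to any of these motifs, and the Col11a1 window holds 9 CpG pairs, 1 CCAAT box and 2 GC boxes. Among 32851 promoter windows in the same set 37.4% hold a CCAAT box, 35.7% a GC box and 13.6% a TATA box, with a median of 7 CpG pairs. The match of letters is a description of these windows.

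A few other collagens were also higher in Spp1-only nuclei, though not whole groups. Of collagen VI only Col6a3 was higher, while the means of Col6a1, Col6a2 and Col6a4 were lower. Means of the FACIT genes Col9a1, Col9a2 and Col9a3 were lower as well. Some of these lower calls rest on few nuclei. Col9a1 was found in 1 Ecel1-only nucleus, Col6a2 in 5, and Col6a1 in 3 Spp1-only and 7 Ecel1-only nuclei. Col19a1, a FACIT collagen that mouse hippocampal interneurons are known to make, averaged 14.8 TPM in Spp1-only and 4.72 TPM in Ecel1-only nuclei, with a log2 ratio of 1.47, and higher on 14 of 15 plates. With a pseudocount of 10 TPM that ratio was 0.75. Col6a3, a chain of the beaded-filament collagen VI, averaged 11.1 TPM in Spp1-only and 0.39 TPM in Ecel1-only nuclei and was found in 16.1% and 2.16% of them. Col12a1, a FACIT collagen, was found in 11.3% of Spp1-only and 0.72% of Ecel1-only nuclei. Col20a1, another FACIT collagen, was found in 10.9% and 7.19%, with a log2 ratio of 1.06. Plate by plate these differences were less regular than those of Col24a1 and Col11a1: Col6a3 was higher in Spp1-only nuclei on 12 plates and lower on 1, Col12a1 higher on 11 and lower on 0, and Col20a1 higher on 9 and lower on 4. Without plate X012116_TRNtest the ratio of Col20a1 was 0.84.

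Col1a2, a chain of collagen I, averaged 8.11 TPM in Spp1-only and 1.83 TPM in Ecel1-only nuclei and was found in 12.4% and 1.08% of them. Col18a1, which carries the endostatin fragment, averaged 9.31 TPM and 3.77 TPM, with shares of 13.1% and 2.88%. For both the spread over plates was wide, with Spp1-only plate means from 0 to 26.6 TPM for Col1a2 and from 0 to 39.03 TPM for Col18a1, and Spp1-only nuclei were higher on 10 and 9 of 15 plates. Without plate X102816NP2 the log2 ratio of Col18a1 was 0.80.

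In the other direction stood Col25a1, a membrane-spanning collagen found in neurons, and Col5a1, the alpha 1 chain of the fibrillar collagen V. Col25a1 averaged 6.04 TPM in Spp1-only and 39.5 TPM in Ecel1-only nuclei, a log2 ratio of -2.52. Its share was 8.39% (5.40 to 12.3%) in Spp1-only and 22.7% (17.9 to 28.04%) in Ecel1-only nuclei, and its level among the nuclei that held it was lower too, with medians of 22.9 and 118.4 TPM. Col5a1 averaged 1.68 TPM in Spp1-only and 8.94 TPM in Ecel1-only nuclei, a log2 ratio of -1.89, with shares of 2.19% and 11.9%; with a pseudocount of 10 TPM the ratio was -0.70. Both were lower in Spp1-only nuclei on 12 plates and higher on 1, and plate means overlapped, reaching 16.7 TPM for Col25a1 and 10.6 TPM for Col5a1 in Spp1-only nuclei against lowest values of 0 in Ecel1-only nuclei. The remaining 8 called genes, Col1a1 (higher), Col4a3, Col6a1, Col6a2, Col6a4, Col9a1, Col9a2 and Col9a3 (lower), were each found in under 10% of either set. Col1a1 was found in only 3 nuclei of each set.

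**Figure D2:**
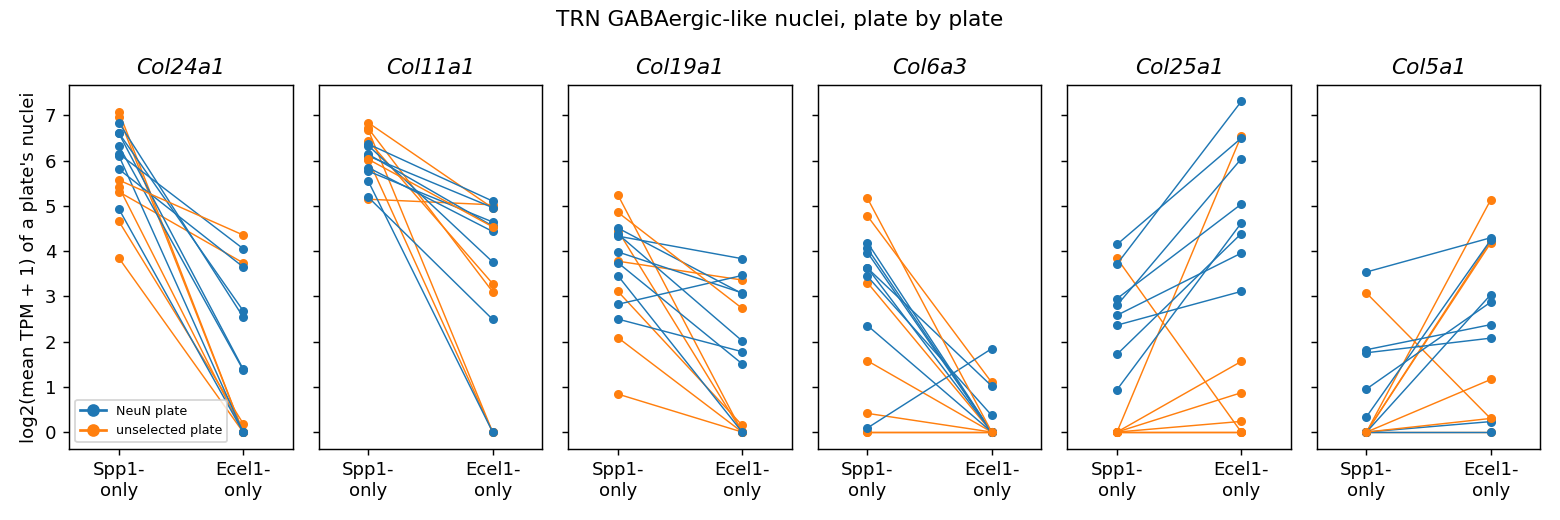
Mean level (log2 of mean TPM + 1) of 6 collagen genes in Spp1-only (left) and Ecel1-only (right) TRN GABAergic-like nuclei, with 1 line per plate for the 15 plates with at least 5 nuclei of each set, NeuN-selected plates in blue and unselected plates in orange. Lines for Col24a1 and Col11a1 slope down on 15 of 15 plates, and most lines for Col25a1 and Col5a1 slope up.

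Nuclei with both Spp1 and Ecel1 (38, all of them NeuN-selected) and with neither (28.74% of the TRN GABAergic-like nuclei) had shares between those of the sets for Col24a1 and Col11a1. Col24a1 was found in 64.6% of Spp1-only, 21.1% of both, 14.7% of neither and 7.19% of Ecel1-only nuclei. Col11a1 was found in 60.9%, 36.8%, 23.1% and 15.1% in the same order. For Col24a1 the interval of the nuclei with both (9.55 to 37.3%) overlapped those of the nuclei with neither and with Ecel1 only, so that part of the order was within counting error. For Col11a1 the interval of the nuclei with neither (17.9 to 28.99%) likewise overlapped those of the nuclei with both (21.8 to 54.01%) and with Ecel1 only. Mean levels of these 2 sets ran the other way, at 13.8 TPM with both and 17.005 TPM with neither for Col24a1, and 20.2 and 25.7 TPM for Col11a1. Within a sort, Col24a1 was found in 65.7% of Spp1-only and 5.56% of Ecel1-only NeuN-selected nuclei, and in 60.7% and 10.2% of unselected nuclei. Both sorts showed the same direction.

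**Figure D3:**
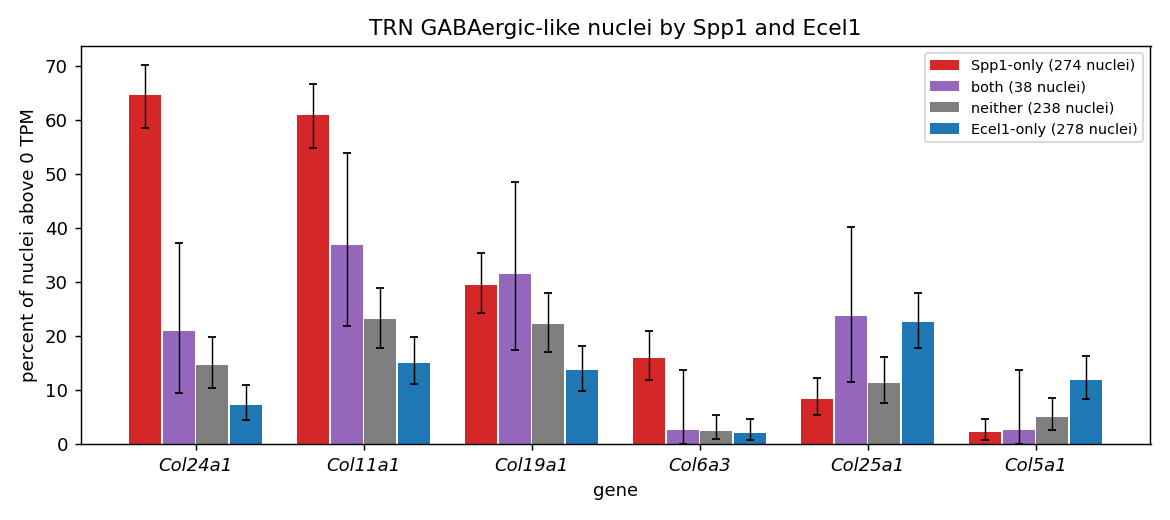
Percent of TRN GABAergic-like nuclei with a value above 0 TPM for 6 collagen genes, by the presence of Spp1 and Ecel1, with bars from 0 and exact 95% binomial intervals (counting error only). Col24a1 and Col11a1 stand highest in Spp1-only nuclei (64.6% and 60.9%), while Col25a1 stands at 8.39% there and 22.7% in Ecel1-only nuclei.

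Col4a2, Col26a1 and Lama5, widely held in TRN GABAergic-like nuclei, differed less than 2-fold in mean level between the sets. Col4a2 was found in 68.2% of Spp1-only and 56.1% of Ecel1-only nuclei and Col26a1 in 47.1% and 34.9%. Lama5 was found in 69.3% of Spp1-only (63.5 to 74.7%) and 48.6% of Ecel1-only nuclei (42.5 to 54.6%), intervals that do not overlap. Summed levels of marker lists of other cells differed in the sets: the 8 oligodendrocyte markers summed to a mean of 585.9 TPM in Spp1-only and 999.5 TPM in Ecel1-only nuclei (0 of 8 higher and 2 lower), and the 7 thalamic glutamatergic markers to 98.01 and 171.5 TPM (0 of 7 higher and 3 lower, Gbx2 at 0 in both sets). The 6 cortical and hippocampal glutamatergic markers summed to 68.6 and 14.2 TPM, with 1 of 6 higher. Summed mural markers were 19.9 TPM in Spp1-only and 9.68 TPM in Ecel1-only nuclei (1 of 6 higher, Rgs5 and Kcnj8 at 0 in Spp1-only nuclei), and fibroblast or meningeal markers 7.55 and 3.79 TPM (1 of 6 higher, Lum, Slc6a13 and Slc22a6 at 0 in Spp1-only nuclei). Microglial markers summed to 40.4 and 60.9 TPM (0 of 8 higher and 4 lower), striatal projection neuron markers to 37.1 and 48.2 TPM (0 of 7 higher and 3 lower) and ependymal markers to 12.8 and 2.19 TPM (1 of 5 higher). The part of these in the collagen differences was not tested, and without neurons that held 5 or more of 8 markers of a glial type the log2 ratios were 3.26 for Col24a1, 1.87 for Col11a1 and -2.68 for Col25a1.

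Partners of these chains were taken from 3 lists. Of 8 basement membrane partner genes compared 3 were higher and 1 lower in Spp1-only nuclei, of 11 receptor genes 1 was higher and 1 lower, and of 20 collagen-modifying genes 3 were higher and 0 lower. The list medians of the log2 ratio were 0.01, -0.09 and 0.19, against 0.02 over all genes compared. Adamts3, a protease that trims procollagen, was found in 85.8% of Spp1-only and 49.6% of Ecel1-only nuclei. Hspg2 (perlecan, a basement membrane proteoglycan) was found in 26.6% and 8.63%. Bcam, a cell-surface receptor for the laminin alpha 5 chain, averaged 23.97 TPM in Spp1-only and 9.26 TPM in Ecel1-only nuclei, with shares of 14.2% and 7.19%. Smoc1, a secreted basement membrane protein, had shares of 23.4% in Spp1-only and 11.5% in Ecel1-only nuclei. In the other direction, Fras1 (a basement membrane protein) was found in 6.20% and 11.5%, and Itga7 (an integrin chain that binds laminin) in 2.55% and 14.4%.

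The contrast by Spp1 and Ecel1 was also made in the Patch-seq libraries, 32 with Spp1 only and 26 with Ecel1 only. Unlike the nuclei, these libraries were given no class. Of all 95 libraries, 46 held 5 or more of 8 markers of a glial type. The part of glial RNA in this contrast was not tested. Of the 27 collagen and laminin genes compared 10 were higher in Spp1-only libraries, where 15.9% of all genes were, and 7 were lower, where 19.2% of all genes were (35.1% in either direction). Col24a1 averaged 162.9 TPM in Spp1-only and 8.68 TPM in Ecel1-only libraries, a log2 ratio of 4.08, with shares of 75% and 26.9%. Col11a1 averaged 35.7 and 17.2 TPM (log2 ratio 1.01), Col19a1 11.8 and 1.61 TPM (2.29), and Col6a3 7.82 and 0.15 TPM (2.95). These 4 genes differed in the direction seen in nuclei, and each was higher in Spp1-only libraries in both sets of libraries with at least 5 of each kind, the set named patchseq_170204 and the libraries outside the named sets. Without the set named patchseq_170106 the log2 ratio of Col11a1 was 0.70. Col18a1 also went that way (17.2 and 0.27 TPM, in 6 of 32 and 2 of 26 libraries), and Col16a1 (64.5 and 21.5 TPM) and Col4a2 (67.04 and 31.4 TPM) were higher in Spp1-only libraries too.

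Lower in Spp1-only libraries were Col9a3, a chain of the FACIT collagen IX (0.89 and 30.3 TPM, in 3 of 32 and 7 of 26 libraries), Col8a1 (0.004 and 5.37 TPM), Col6a1 (3.75 and 26.9 TPM), Lama2 (0.15 and 4.47 TPM), Col11a2 (1.30 and 5.96 TPM) and Col9a2 (7.92 and 18.2 TPM). Without libraries that held 5 or more of 8 markers of a glial type, Col9a2 was higher in Spp1-only libraries (log2 ratio 3.48), and without the set named patchseq_170204 Col11a2 had a ratio of -0.03. A pair of genes went against the nuclei. Col6a4 averaged 3.36 TPM in Spp1-only and 0.03 TPM in Ecel1-only libraries (log2 ratio 2.08), against 2.88 and 7.77 TPM in nuclei (-1.18). Col5a1 did so with 7.50 TPM in Spp1-only and 2.84 TPM in Ecel1-only libraries, although it was found in fewer of the Spp1-only libraries (15.6% and 23.1%). With 26 to 32 libraries a set, most of these intervals overlapped. Those of Col24a1 did not, at 56.6 to 88.5% in Spp1-only and 11.6 to 47.8% in Ecel1-only libraries.

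Some laminin genes were called between classes, while none of those compared was called between Spp1-only and Ecel1-only TRN nuclei. Lama5, the alpha 5 chain of many adult basement membranes, was the laminin gene found most often in TRN GABAergic-like nuclei, in 53.5% of NeuN-selected (49.4 to 57.5%) and 58.4% of unselected nuclei (51.7 to 64.9%). Its plate means ran from 13.4 over 32.8 to 73.7 TPM over the 21 TRN plates. Of GFP-sorted GABAergic-like nuclei it was held by 42.9% of the 14 striatal (17.7 to 71.1%), 5.05% of the hippocampal, 5% of the somatosensory and 2% of the M2 nuclei. The striatal interval overlaps those of the TRN groups, and the intervals of the other regions lie below them. Thalamic glutamatergic-like nuclei held Lama5 in 64.5% of NeuN-selected and 39.7% of unselected TRN nuclei.

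Lama3 and Lamb1 had lower means in TRN than in the GFP-sorted GABAergic-like nuclei. In striatum they did not reverse the pattern of Lama5, whose highest group mean was also there (80.8 TPM). No laminin gene was called higher in TRN than in the GFP-sorted regions. Lama3, the alpha chain of the epithelial laminin of the skin, was found in 2.54% of TRN GABAergic-like nuclei and in 54.1% of the GFP-sorted ones (12.55% of the 2653 libraries). By region the share was 85.7% in striatum, 55.8% in somatosensory cortex, 55% in M2 cortex and 46.5% in hippocampus. Outside GABAergic-like nuclei Lama3 was found in 35.3% of the 17 striatal astrocyte-like and 22.5% of the 40 hippocampal ependymal-like nuclei. Its mean was 0.52 TPM in TRN and 87.6 TPM over the 4 GFP-sorted regions, log2 ratio -5.87, with plate means up to 2.85 TPM in TRN and from 5.84 TPM upward in hippocampus. Lamb1, the most widely used beta chain, averaged 2.204 TPM in TRN and 110.9 TPM in the GFP-sorted regions (log2 ratio -5.13), with shares of 6.28% and 45.6%. Lama1, the alpha chain of the embryonic laminin, was found in 3.02% of TRN and 12.01% of GFP-sorted nuclei. The TRN and GFP tables were normalized separately, and no plate holds both tissues, so tissue, plate and table cannot be told apart in these values.

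Of the 39 genes compared between TRN and GFP-sorted GABAergic-like nuclei 5 were higher in TRN, where 9.84% of all genes were, and 12 were lower, where 15.5% of all genes were (25.3% in either direction). Col19a1 was the most abundant of those lower, at 11.97 TPM in TRN and 376.4 TPM in the GFP-sorted regions (log2 ratio -4.86). It was found in 22.2% of TRN nuclei and, of the GFP-sorted nuclei, in 92.9% of striatal, 87% of M2, 85% of somatosensory and 78.8% of hippocampal ones. Glutamatergic-like nuclei held it too, at 40% in somatosensory and 31.9% in M2 cortex. Plate means of Col19a1 reached 24.1 TPM at most in TRN and started at 155.6 TPM in hippocampus, so the TRN and hippocampal plates did not overlap. Col5a1 averaged 4.21 and 16.4 TPM. Col16a1, a FACIT collagen, averaged 55.6 TPM in TRN and 118.1 TPM in the GFP-sorted regions although it was found more often in TRN (33.8% and 26.4%), and without the striatal plate its log2 ratio was -0.33. The 5 genes higher in TRN, Col18a1, Col1a2, Col6a3, Col9a2 and Col9a3, were each found in under 10% of either group.

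**Figure D4:**
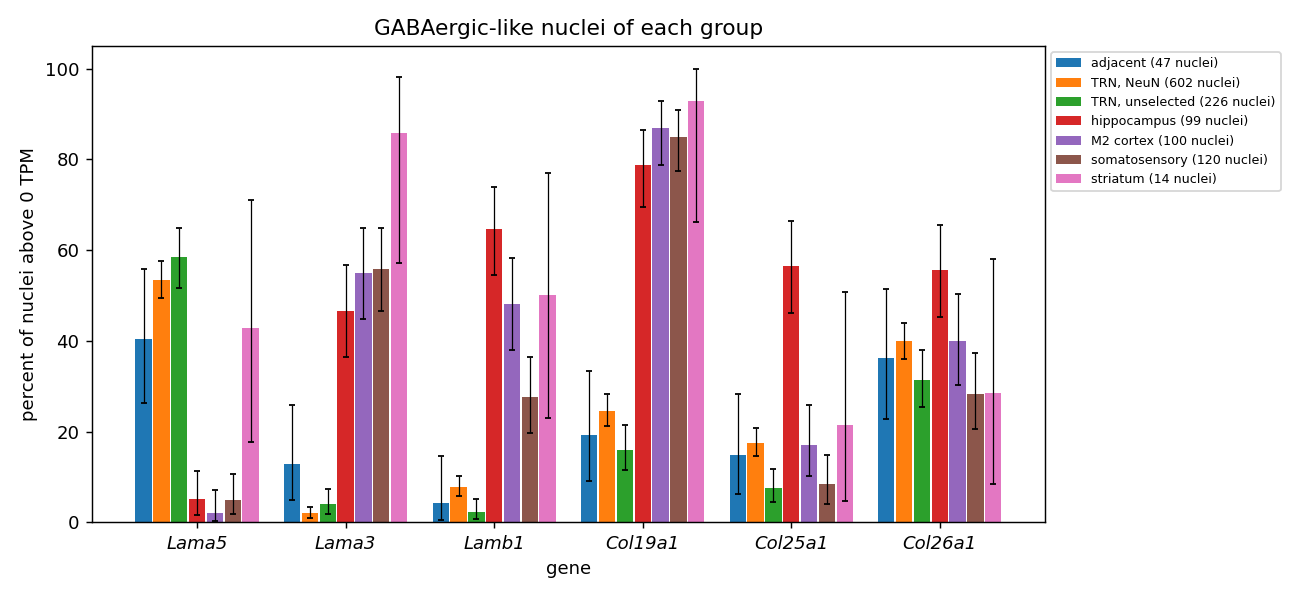
Percent of GABAergic-like nuclei with a value above 0 TPM for 3 laminin and 3 collagen genes in the adjacent, TRN and GFP-sorted groups, with bars from 0 and exact 95% binomial intervals (counting error only). Lama5 stands at 53.5% and 58.4% in the TRN groups, where Lama3 and Lamb1 are under 8%, and Col19a1 is at 78.8% or more in the GFP-sorted groups.

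Other laminin chains were found in glia and in several neuron classes. Lama2, the alpha chain of the laminin of muscle basement membranes, was found in 49.4% of TRN astrocyte-like nuclei (37.9 to 60.9%) and 21.3% of oligodendrocyte-like nuclei (16.8 to 26.4%), against 3.54% of unselected GABAergic-like nuclei. Adjacent astrocyte-like nuclei held it in 48.8%, hippocampal ones in 56.2% and striatal ones in 29.4%. Lamb2, the beta chain known from the neuromuscular synapse, was found in 18.99% of TRN, 43.8% of hippocampal and 35.3% of striatal astrocyte-like nuclei, and in 45% and 50% of the hippocampal and striatal ependymal-like nuclei. Lamc1, the gamma chain shared by most laminins, was spread more evenly, with 22.2% to 35.7% in several neuron classes and 13.5% of TRN oligodendrocyte-like nuclei. Lama4, Lamb3 and Lamc3 stayed under 20% in each named class.

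Collagen IV genes were found across neuron classes. Col4a2 was among the most widely held of the 55 genes in neurons: it was found in 58.1% of TRN GABAergic-like nuclei (64.9 TPM) and 70.4% of TRN thalamic glutamatergic-like nuclei (80.2 TPM). In GFP-sorted hippocampus it was found in 83.8% of GABAergic-like nuclei (160.5 TPM) and 64.6% of glutamatergic-like nuclei (103.9 TPM). Col4a1 was found in 21.7% of TRN GABAergic-like (11.6 TPM), 41.7% of TRN thalamic glutamatergic-like (24.1 TPM) and 51.5% of hippocampal GABAergic-like nuclei (36.8 TPM). Glia on the same plates held little of either, with Col4a2 in 1.01% of TRN oligodendrocyte-like and 8.86% of astrocyte-like nuclei. Col4a4 had values above 0 in many nuclei, as in 77.8% of the 27 adjacent thalamic glutamatergic-like nuclei, yet its mean there was 3.80 TPM. Col4a5 had its highest share in hippocampal astrocyte-like nuclei (31.2% of 16) and Col4a6 in striatal ones (35.3% of 17).

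Col4a1 and Col4a2 lie head to head on chromosome 8, and their RefSeq spans share 85 bases, where reads of one and the other cannot be told apart in data without strand. Their promoter windows (RefSeq, GRCm38.p6, 250 bases before to 50 after the start used for each) are shown because the pair shares 78 bases, read on opposite strands. For Col4a1 that start is not the edge of its RefSeq gene span, which is chr8:11312889. The Col4a1 window is chr8:11312777-11313076 on the minus strand, the Col4a2 window is chr8:11312555-11312854 on the plus strand, and capitals mark the CCAAT and GC boxes as above.
Col4a1 promoter: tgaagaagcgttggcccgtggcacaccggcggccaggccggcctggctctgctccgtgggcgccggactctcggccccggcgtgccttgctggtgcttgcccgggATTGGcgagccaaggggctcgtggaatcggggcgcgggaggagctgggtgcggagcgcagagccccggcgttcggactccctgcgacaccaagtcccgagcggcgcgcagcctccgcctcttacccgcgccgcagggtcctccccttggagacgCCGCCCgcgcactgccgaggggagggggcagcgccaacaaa
Col4a2 promoter: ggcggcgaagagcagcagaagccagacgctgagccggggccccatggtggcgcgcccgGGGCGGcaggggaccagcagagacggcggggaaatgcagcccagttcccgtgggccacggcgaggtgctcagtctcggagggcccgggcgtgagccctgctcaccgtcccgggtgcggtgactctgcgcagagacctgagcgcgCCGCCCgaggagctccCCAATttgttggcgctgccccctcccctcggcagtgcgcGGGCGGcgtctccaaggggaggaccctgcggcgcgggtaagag
The Col4a1 window holds 37 CpG pairs, 1 CCAAT box and 1 GC box, and the Col4a2 window 33 CpG pairs, 1 CCAAT box and 3 GC boxes, with no TATA box in either. Promoter windows were in the table for 40 of the 55 genes. In TRN GABAergic-like nuclei Col4a2 was found in 81.1% of the 180 nuclei with Col4a1 and in 51.7% of those without. The nuclei with Col4a1 also had more detected genes (median 5259, against 4666.5 without), and its part in this difference was not tested.

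On the TRN plates, thalamic glutamatergic-like nuclei (7.501% of the 2653 libraries) were set against GABAergic-like nuclei (31.21%). Of the 35 genes compared 4 were higher in glutamatergic-like nuclei, where 10.7% of all genes were, and 11 were lower, where 11% of all genes were (21.8% in either direction). Col27a1, a fibrillar collagen, averaged 85.3 TPM in glutamatergic-like and 1.19 TPM in GABAergic-like nuclei (log2 ratio 5.30). It was found in 20.6% of the glutamatergic-like nuclei, and plate means ran from 0 to 310 TPM there, higher than in GABAergic-like nuclei on 11 of 14 plates and lower on 0. Lamb1 averaged 74.996 TPM and 2.204 TPM (log2 ratio 4.57), with shares of 61.8% and 6.28%. The plate means of Lamb1 did not overlap, from 14.9 to 120.5 TPM in glutamatergic-like and from 0 to 7.34 TPM in GABAergic-like nuclei on the same 14 plates. Col25a1 averaged 77.2 and 19.2 TPM, with shares of 57.8% and 14.7%, and was higher on 14 of 14 plates. Col9a3 averaged 79.4 and 29.7 TPM, with shares of 31.7% and 5.31%.

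Col11a1 was found in few thalamic glutamatergic-like nuclei, 2 nuclei or 1.01% (0.09 TPM), against 33.6% of GABAergic-like nuclei (35.7 TPM), log2 ratio -5.08. Plate means of Col11a1 reached 1.01 TPM in glutamatergic-like nuclei and ran from 4.30 to 56.5 TPM in GABAergic-like nuclei. Col19a1 (1.75 and 11.97 TPM) and Col16a1 (15.4 and 55.6 TPM) were also lower in glutamatergic-like nuclei, on 13 and 12 of 14 plates. Col24a1, the other gene higher in Spp1-only nuclei, differed less than 2-fold in mean level between these classes, and was found in 19.1% of glutamatergic-like and 28.99% of GABAergic-like nuclei. The sorts differed in it: 12.1% of NeuN-selected and 36.2% of unselected thalamic glutamatergic-like nuclei held Col24a1. Col26a1 was found in 52.3% and 37.6%. Of the partner lists, a pair of genes chosen after their values were seen stood apart: Fras1 was found in 92.5% of glutamatergic-like and 10.3% of GABAergic-like nuclei, and Bmp1, the procollagen C-proteinase, in 85.4% and 22.7%.

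Glial classes were compared with GABAergic-like nuclei of the unselected TRN sort. In oligodendrocyte-like nuclei 8 of 31 genes were higher, where 17.2% of all genes were, and 18 lower, where 36.9% of all genes were (54.1% in either direction). In astrocyte-like nuclei 10 of 31 genes were higher, where 21.6% of all genes were, and 14 lower, where 39.1% of all genes were (60.7% in either direction). Glia held fewer detected genes, with medians of 1989 in oligodendrocyte-like and 2159 in astrocyte-like against 4267 in GABAergic-like nuclei, and the part of this in the differences was not tested. Col24a1, Col26a1, Col4a2, Lama5, Col11a1 and Col19a1 were lower in both glial classes. Col24a1 was listed at 0 in every oligodendrocyte-like nucleus, which allows a share of up to 1.01%, and in all 79 astrocyte-like nuclei (up to 3.80%), against a share of 25.2% in GABAergic-like nuclei. Col11a1 was found in no oligodendrocyte-like nucleus (up to 1.01%) and 1 of 79 astrocyte-like nuclei, against 28.8% of GABAergic-like nuclei. Col26a1 was found in 2 oligodendrocyte-like nuclei (0.68%) and 0 of 79 astrocyte-like nuclei (up to 3.80%), against 31.4% of GABAergic-like nuclei. Lama5 was found in 1.69% of oligodendrocyte-like, 6.33% of astrocyte-like and 58.4% of GABAergic-like nuclei. Col4a1 and Col7a1, the anchoring-fibril collagen of skin, were also lower in oligodendrocyte-like nuclei, at 1.01% and 1.35% against 15.9% and 13.7% of GABAergic-like nuclei.

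Lama2 and Col11a2 were higher in both glial classes. Lama2 averaged 28.7 TPM in oligodendrocyte-like and 81.6 TPM in astrocyte-like nuclei, against 1.12 TPM in GABAergic-like nuclei, and was higher in the glia on 12 of 12 and 10 of 10 plates. Col11a2, the alpha 2 chain of collagen XI, averaged 18.9 TPM and 98.6 TPM, against 4.41 TPM in GABAergic-like nuclei. Col11a2 was higher on 7 of 12 plates in oligodendrocyte-like nuclei. Of the astrocyte-like nuclei 36.7% held Col11a2 and 1.27% held its partner chain Col11a1.

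Several collagen genes and the laminin gene Lamb2 were higher in astrocyte-like than in GABAergic-like nuclei of the same sort. Col9a3 averaged 225.5 TPM in astrocyte-like and 1.00 TPM in GABAergic-like nuclei (log2 ratio 6.83, shares of 29.1% and 1.77%). Lamb2 averaged 53.8 and 0.74 TPM and was higher on 10 of 10 plates. Col1a1 and Col1a2, the chains of collagen I, averaged 70.5 and 47.9 TPM in astrocyte-like nuclei, against 3.30 and 2.29 TPM in GABAergic-like nuclei, with shares of 17.7% and 15.2% in the astrocyte-like nuclei. The pair was found together in 2 of the 79 astrocyte-like nuclei. Col1a2 was found in 14.3% of the astrocyte-like nuclei with Col1a1 and in 15.4% of those without. Col5a2 was found in 13 of 79 astrocyte-like nuclei (55.1 TPM) and is listed at 0 in every unselected GABAergic-like nucleus (up to 1.33%). In adjacent tissue Col1a1 and Col1a2 were found in 13.95% and 11.6% of 43 astrocyte-like nuclei, and Col5a2 in 1 of 43.

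**Figure D5:**
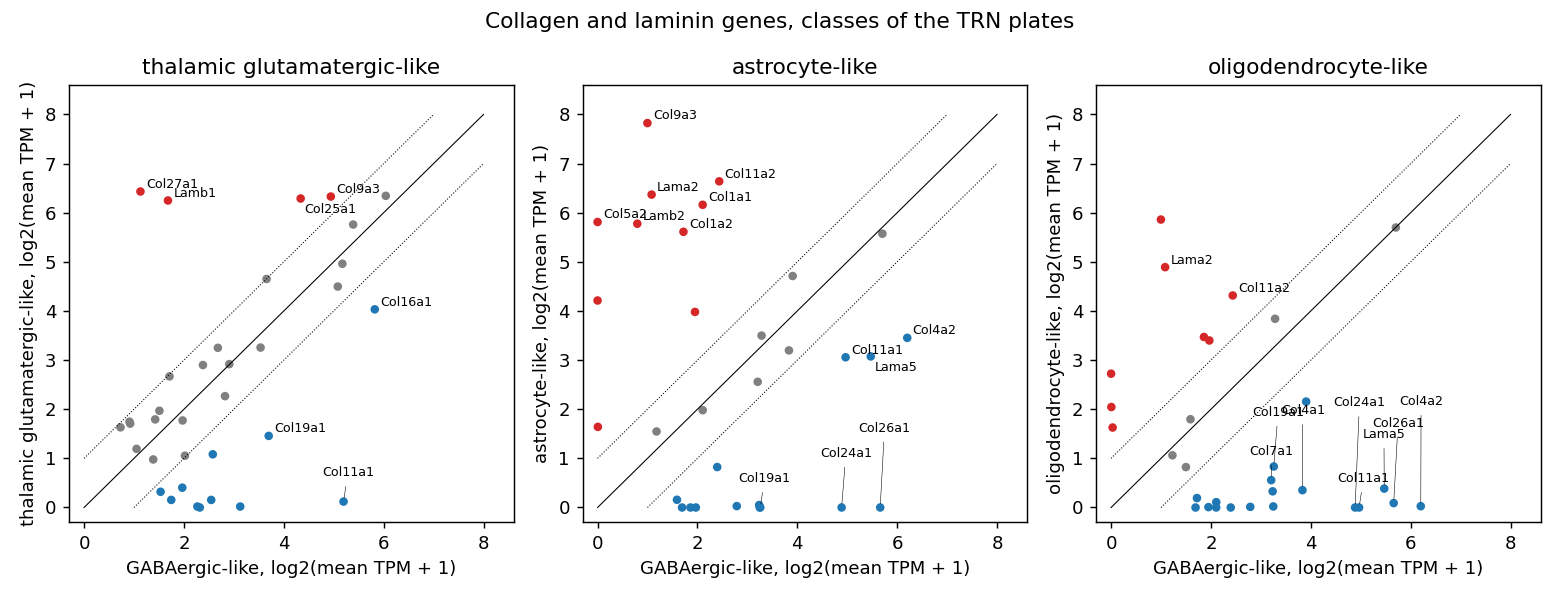
Mean level (log2 of mean TPM + 1) of the compared collagen and laminin genes in thalamic glutamatergic-like, astrocyte-like and oligodendrocyte-like nuclei (y axes) against GABAergic-like nuclei (x axes) of the TRN plates, both sorts in the first panel and the unselected sort in the others. The solid line marks equal levels and dotted lines a 2-fold difference in mean TPM + 1; red points are higher, blue points lower, and names are given for called genes found in at least 10% of a class. Col27a1 and Lamb1 stand out in the glutamatergic-like panel, Col9a3 in the astrocyte-like panel and Lama2 in the oligodendrocyte-like panel.

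Ependymal-like nuclei, which line the ventricles, came from the hippocampal (40) and striatal (12) GFP plates. Col8a2, a short-chain collagen of the eye's Descemet membrane, was found in 60% and 75% of them (152.8 and 273.6 TPM), and in at most 5.88% of any other named class. Col5a3 was found in 60% and 33.3%, Col6a5 in 30% and 41.7%, and Lamb1 in 32.5% and 33.3%. Col6a5 reached 6.25% in the other named classes.

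Of the collagen VI genes, Col6a1 and Col6a2 were held by forebrain projection neurons, whose GFP-sorted nuclei were normalized in another table than the TRN nuclei. Col6a1 was found in 72.2% of 18 adjacent and 50% of 18 striatal projection neuron-like nuclei (683.96 and 353.3 TPM). It was found in 55.3% of M2 and 55% of somatosensory glutamatergic-like nuclei (620 and 658.1 TPM), but in 12.6% of hippocampal ones. In TRN it was found in 2.05% of GABAergic-like and 0.50% of thalamic glutamatergic-like nuclei. Col6a3 and Col6a4 were found in 6.88% and 5.19% of TRN GABAergic-like nuclei and in 4.26% and 8.51% of M2 glutamatergic-like ones. The Col6a1 partner chain Col6a2 was found in 34.04% of M2 and 35% of somatosensory glutamatergic-like nuclei. In M2 glutamatergic-like nuclei Col6a2 was found in 42.3% of nuclei with Col6a1 and 23.8% of those without. Col5a1 and Col12a1 were also held by cortical glutamatergic-like nuclei, at 38.3% and 27.7% in M2 and 45% and 25% in somatosensory cortex, and Col15a1 in 25% of the 20 somatosensory nuclei. Col11a2 was found in 50% of striatal projection neuron-like nuclei of the striatal plate and 16.7% of those of the adjacent plates.

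Within hippocampus, glutamatergic-like nuclei (50.68% of 440) were compared with GABAergic-like nuclei (99) of the same plates. Of 39 genes 9 were higher in glutamatergic-like nuclei, where 17.9% of all genes were, and 18 were lower, where 13.2% of all genes were (31.2% in either direction). Col19a1 averaged 9.54 TPM in glutamatergic-like and 357.9 TPM in GABAergic-like nuclei (log2 ratio -5.09), Col26a1 2.16 and 85.6 TPM (-4.78), Lama3 2.06 and 38.6 TPM (-3.70) and Col25a1 10.9 and 100.6 TPM (-3.09). These 4 were lower in glutamatergic-like nuclei on 7 of 7 plates. Lamb1 averaged 36.3 and 97.3 TPM and was lower on 6 of 7 plates, and Lama1 was found in 1.35% and 12.1%. Col16a1 (11.5 and 30.04 TPM), Col5a2 (15.1 and 47.7 TPM), Col5a3 (2.30 and 9.20 TPM), Col27a1 (4.10 and 10.49 TPM) and Col5a1 (7.09 and 17.04 TPM) were lower with less regular plates, 4 of 7 plates having Col27a1 and Col5a1 higher in glutamatergic-like nuclei. Leaving out 1 plate gave log2 ratios of 0.51 for Col5a1 (X041317p2), -0.39 for Col27a1 (X061616p5) and -0.75 for Col16a1 (X041317p6). Col20a1 (8.85 and 1.41 TPM) and Col6a1 (82.6 and 24.7 TPM) were higher, on 7 and 6 of 7 plates.

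Among the GFP-sorted GABAergic-like nuclei, each region was set against the mean of the others. Hippocampus had 10 of 37 genes higher, where 14.7% of all genes were, and 8 lower, where 13.8% of all genes were (28.5% in either direction). Col25a1 averaged 100.6 TPM in hippocampus and 16.8 TPM in the other regions, with shares of 56.6% and 12.8%, and Col4a1 36.8 and 17.6 TPM, with shares of 51.5% and 20.5%. Col5a2 (47.7 and 1.04 TPM), Col27a1 (10.49 and 3.22 TPM) and Col5a3 (9.20 and 3.72 TPM) were higher too, and Lama3 (38.6 and 103.9 TPM), Col24a1 (4.20 and 24.3 TPM), Col16a1 (30.04 and 147.5 TPM) and Col11a2 (5.30 and 16.4 TPM) were lower. Without the striatal plate the log2 ratio of Col11a2 was 0.01, that of Col5a3 0.63 and that of Col4a1 0.66, and without plate X061616p5 that of Col27a1 was 0.77.

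Somatosensory cortex had 15 of 42 genes higher, where 12.1% of all genes were, and 11 lower, where 16.5% of all genes were (28.6% in either direction). Col24a1, the gene that set Spp1-only TRN nuclei apart, averaged 63.6 TPM in somatosensory cortex and 4.48 TPM in the other regions, with shares of 23.3% (16.1 to 31.9%) and 5.63% (2.94 to 9.63%). Col11a1 averaged 96.4 and 45.8 TPM, Col20a1 8.68 and 1.48 TPM and Col7a1 20.8 and 9.12 TPM. Lower there were Lamb1 (35.6 and 135.9 TPM), Col25a1 (14.4 and 45.5 TPM), Col27a1 (0.07 and 6.70 TPM) and Col11a2 (6.57 and 16.01 TPM). Without the striatal plate the log2 ratios were 0.43 for Col11a2 and 0.57 for Col7a1, and without plate scxP10 they were 0.67 for Col20a1 and -0.99 for Col25a1. M2 cortex had 3 of 37 genes higher, where 10.5% of all genes were, and 11 lower, where 15.4% of all genes were (25.9% in either direction). Lamb1 (47.2 and 132.1 TPM), Col16a1 (49.4 and 141.1 TPM) and Col24a1 (9.23 and 22.6 TPM) were lower in M2 cortex than in the other regions. Without the striatal plate the log2 ratios were -0.49 for Lamb1 and -0.69 for Col16a1, and without plate X061616p1 that of Col24a1 was -0.66.

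Striatum, with 14 nuclei of 1 plate, had 8 of 36 genes higher, where 15.5% of all genes were, and 19 lower, where 38.6% of all genes were (54.1% in either direction). The laminin chains among those higher were Lama5 (80.8 TPM in striatum and 3.96 TPM in the other regions), Lamb1 (263.3 and 60.04 TPM), Lama3 (152.2 and 66.01 TPM) and Lamc1 (18.9 and 8.80 TPM). Col16a1 (262.8 and 69.9 TPM) and Col11a2 (38.8 and 5.26 TPM) were higher as well. Col4a2 (50.7 and 145.7 TPM), Col4a1 (7.03 and 27.5 TPM) and Col25a1 (6.43 and 48.1 TPM) were lower, and Col24a1 and Col7a1 are listed at 0 in all 14 nuclei. Each region has its own plates, so region and plate cannot be told apart, and 14 nuclei leave wide intervals, such as 57.2 to 98.2% for Lama3. Without plate scxP10 the log2 ratio of Lamc1 was 0.79.

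Between NeuN-selected and unselected TRN GABAergic-like nuclei 6 of 33 genes were higher in the NeuN sort, where 8.45% of all genes were, and 5 were lower, where 4.6% of all genes were (13.1% in either direction). Col25a1 was the only called gene found in at least 10% of either sort, at 23.3 TPM in NeuN-selected and 8.42 TPM in unselected nuclei, with shares of 17.4% and 7.52%. The sorts also differed in detected genes (4974.5 and 4267) and came from different plates.

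Adjacent GABAergic-like nuclei (47) had 6 of 34 genes higher than TRN ones, where 7.67% of all genes were, and 8 lower, where 16.7% of all genes were (24.4% in either direction). For Lama3 the mean was 10.4 TPM in adjacent nuclei, against 0.52 TPM in TRN nuclei, with shares of 12.8% (4.83 to 25.7%) and 2.54%. Col11a1 averaged 73.3 and 35.7 TPM, with shares of 48.9% and 33.6%. When classes were taken from marker genes in each nucleus, both were lower in adjacent nuclei, with log2 ratios of -0.62 for Lama3 and -0.21 for Col11a1. Col25a1 averaged 41.9 and 19.2 TPM with shares of 14.9% and 14.7%, and Lamc1 averaged 2.35 and 6.07 TPM. Without the adjacent plate gpe_25 Col25a1 was lower in adjacent nuclei, with a log2 ratio of -0.94, and the ratio of Lamc1 was -0.47. Without plate gpe_23 that of Col11a1 was 0.64.

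Adjacent glia were compared with those of the unselected TRN sort. In oligodendrocyte-like nuclei 4 of 15 genes were higher in adjacent tissue, where 13.1% of all genes were, and 6 lower, where 23% of all genes were (36.1% in either direction). The mean of Lamc1 was 55.2 TPM in adjacent nuclei, against 13.3 TPM in TRN nuclei. Col16a1 (13.9 and 50.9 TPM), Col11a2 (5.97 and 18.9 TPM) and Lama2 (13.3 and 28.7 TPM) were lower in adjacent nuclei, although Col16a1 was found in 18.1% and 18.6%. In astrocyte-like nuclei 6 of 24 genes were higher in adjacent tissue, where 23.9% of all genes were, and 11 lower, where 29.1% of all genes were (53.1% in either direction). Of these, Col5a2 (0.92 and 55.1 TPM) and Col1a1 (32.7 and 70.5 TPM) were lower and Col5a3 (3.47 and 0.61 TPM) was higher in adjacent nuclei. Without plate trn_10 the log2 ratio of Col1a1 was -0.25, and without plate X012116_ThrP26 that of Col5a3 was 0.48. In oligodendrocyte-like nuclei that of Lama2 was -0.82 without plate X012116_GPEp24.

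Patch-seq libraries (95) were set against NeuN-selected TRN GABAergic-like nuclei (22.69% of the 2653 libraries), across 2 tables normalized separately. Of 40 genes 9 were higher in Patch-seq, where 8.86% of all genes were, and 7 were lower, where 29.7% of all genes were (38.5% in either direction). Col1a1 averaged 41.8 TPM in Patch-seq and 0.24 TPM in nuclei (log2 ratio 5.11), and was found in 57.9% of libraries (47.3 to 67.96%) and 0.83% of nuclei (0.27 to 1.93%). Over the 95 libraries its lowest, median and highest values were 0, 1.19 and 568.7 TPM. Col1a2 averaged 16.4 and 4.39 TPM, with shares of 48.4% and 5.65%. Col6a2 (11.6 and 2.95 TPM), Col9a2 (11.1 and 3.70 TPM), Col24a1 (73.7 and 34.4 TPM) and Col17a1 (2.41 and 0.62 TPM) were also higher, although without the libraries and nuclei rich in glial markers Col17a1 had a log2 ratio of -0.03. Without the set named patchseq_170204 the ratio was 0.79 for Col9a2 and 0.35 for Col17a1, and without the libraries outside the named sets it was 0.74 for Col24a1. Col25a1 (1.69 and 23.3 TPM), Col7a1 (2.30 and 11.5 TPM), Col9a3 (11.8 and 40.5 TPM) and Col19a1 (4.99 and 13.3 TPM) were lower in Patch-seq.

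Markers of other cells were set beside collagen I in the Patch-seq libraries. All 8 microglial markers were higher in Patch-seq, with a mean summed level of 1205.1 TPM in Patch-seq and 42.6 TPM in NeuN-selected nuclei. Col1a1 was found in 81.5% of the 27 libraries with at least 5 of the 8 microglial markers and in 48.5% of the 68 with fewer. For Col1a2 these shares were 59.3% and 44.1%, with overlapping intervals. Col4a2 had 81.5% and 52.9%, so such a split was not particular to collagen I. By library set, Col1a1 was found in all 7 libraries of patchseq_170106, 44.1% of patchseq_170204 and 61.1% outside the named sets. The summed endothelial markers averaged 7.39 and 1.80 TPM and the fibroblast or meningeal markers 20.05 and 12.1 TPM. Without the 2 libraries that held at least 4 endothelial, mural or meningeal markers Col1a1 was found in 56.99% of 93, and without the 46 libraries with 5 or more of 8 markers of a glial type (and the 36 such nuclei) its log2 ratio was 4.96. Whether microglial or other foreign RNA carried part of it was not tested.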

How the data were processed

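Single sorted nuclei and Patch-seq libraries were sequenced with a modified SMARTseq2 protocol in 96-well plates, per the labels' protocols. The submitters' processing notes name the build mm10, Bowtie, RSEM, TopHat2 2.0.10 and Seurat 2.2.0, with no role given. The authors deposited the values of the adjacent and other TRN nuclei as natural log values, and those of the GFP and Patch-seq tables as TPM. The logarithm was undone and each TRN library was rescaled to a total of 1000000. After both steps 236907 of the 236907 values under 2 TPM were whole multiples of 0.01 TPM (tolerance 0.1 steps). The tables hold no counts, so depth is unknown and detected genes per library stand in for it.

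The 55 genes and all gene lists were chosen with earlier results of these data known. Classes came from Leiden clustering of the other genes (resolution 1, 2000 variable genes found in at least 10 nuclei, 30 principal components, 15 neighbours, best of 20 starts) and a list of markers per class. A cluster was named where enough markers were found in 50% of its nuclei (40% for transmitter markers). These thresholds were chosen once the share of nuclei with each marker was known. No doublet caller was run, and classes of fewer than 10 nuclei were not described.

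A gene was called with a 2-fold difference of mean TPM plus a pseudocount of 1, where the group means averaged at least 1 TPM. Means over several GFP regions weight regions equally. Plate values need at least 5 nuclei. How many of all genes have plate means that do not overlap between groups was not counted. Genes were named when found in 20% of a class, or when called and found in 10% of either group of a comparison, up to 25 a comparison and, of the partner lists, up to 6. Shares have 95% exact intervals, and a share of 0 is given with the limit of 3 counts. Intervals and limits cover counting error only, since nuclei of a plate may share an animal. Each group is 1 sample, so no p-value was computed. Only the comparison of means was tested, on resampled TRN GABAergic-like nuclei in which the levels of chosen genes were raised or lowered. Clustering, class names, shares and plate counts were not tested in this way. Work was done in Python 3.11.15 with igraph 0.11.9, scikit-learn 1.9.0, matplotlib 3.10.9, pandas 2.3.3, numpy 2.4.6 and scipy 1.17.1. Alternatives were other pseudocounts, no filter, log means, values as deposited, other classes, deeper nuclei only, other limits for Spp1 and Ecel1, and leaving out each plate.

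The design text gives 9 plates without NeuN selection, while nuclei with values fall on 13 such plates by their labels.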

Additional observations from a re-analysis of the deposited data

Results flagged for a closer look

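Col5a1, the alpha 1 chain of collagen V, differed in mean level in opposite directions between Spp1-only and Ecel1-only cells of the 2 assays. Its log2 ratio was -1.89 in TRN nuclei and 1.15 in Patch-seq libraries, and the difference between the assays was not tested. The Patch-seq share was lower in Spp1-only libraries, with Col5a1 in 5 of 32 against 6 of 26 Ecel1-only libraries. Of the 2 library sets with at least 5 of each kind, 1 had the higher mean in Spp1-only libraries and 1 the lower.

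Col5a3, another chain of collagen V, was found in 21.2% (7 of 33) of the nuclei of the unnamed cluster in the unselected TRN sort. Its exact interval there (8.98 to 38.9%) lay above the upper bounds of all named classes of that sort. These 33 nuclei enter no comparison of the report. At resolution 1 the unnamed nuclei of the TRN table formed a cluster of 47, with Gpr17, Pdgfra and Vcan among the genes most raised in it. The precursor-like cluster of 25 described below shares these genes, so both observations can rest on the same nuclei. Another cluster at resolution 2, of 22 nuclei, had the microglial genes Cx3cr1, Csf1r and C1qb among its most raised.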

How the results depend on the processing

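No paired analysis was possible because the replicate numbers in the labels are serial numbers of nuclei and the results come from no test; plates that held both groups were compared plate by plate, as a description. Counts of called genes are given in one order: Spp1-only against Ecel1-only nuclei, the same in Patch-seq, TRN against GFP-sorted, thalamic glutamatergic, oligodendrocyte and astrocyte against GABAergic, NeuN-selected against unselected, adjacent GABAergic, oligodendrocyte and astrocyte, Patch-seq against nuclei, hippocampal glutamatergic, then hippocampus, M2, somatosensory cortex and striatum against the other regions. The counts reported were 18, 17, 17, 15, 26, 24, 11, 14, 10, 17, 16, 27, 18, 14, 26 and 27. With a pseudocount of 10 TPM they were 5, 5, 5, 6, 9, 13, 2, 1, 3, 5, 3, 8, 6, 4, 4 and 12. With differences of mean log2(TPM + 1) they were 4, 6, 6, 6, 6, 11, 0, 1, 0, 1, 3, 6, 6, 1, 3 and 7. On the deposited scale adjacent astrocytes gave 11. Without 1 plate or library set each, they ran 16 to 19, 16 to 23, 15 to 21, 15 to 18, 24 to 27, 22 to 27, 10 to 14, 12 to 16, 9 to 12, 13 to 18, 14 to 17, 23 to 31, 15 to 20, 11 to 19, 21 to 26 and 24 to 27. In the Spp1 contrast of Patch-seq only the sets named patchseq_170106 and patchseq_170204 could be left out. Without the libraries outside the named sets too few remained for a count. The striatal plate likewise stayed in the striatal comparison.

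Of 1459 log2 ratios of named genes under an alternative, 1256 stayed past 2-fold in the same direction, 15 changed sign and the others were under 2-fold. With mean log2 differences the sign changed for Col9a2 in Patch-seq Spp1-only libraries (0.13), Col16a1 in TRN (0.22), Col9a3 in Patch-seq (0.30) and Col11a2 in hippocampus (0.042). With classes from markers of each nucleus it changed for Lama3 (-0.62) and Col11a1 (-0.21) in adjacent GABAergic nuclei and Col16a1 in hippocampal glutamatergic nuclei (0.35). With at least 4000 detected genes, where glia gave no values, it changed for Col11a2 in hippocampus (0.11) and Col16a1 in M2 cortex (0.29). Leaving out neurons rich in glial markers, an alternative chosen after seeing the data, turned Col9a2 in Patch-seq Spp1-only libraries (3.48) and Col17a1 in Patch-seq (-0.032). Without 1 plate, Col25a1 in adjacent nuclei ran from -0.94 to 1.54, Col5a1 in hippocampal glutamatergic nuclei from -1.76 to 0.51, Col11a2 in hippocampus from -1.86 to 0.013 and in somatosensory cortex from -2.34 to 0.43. In Spp1-only nuclei Col24a1 ran from 2.38 to 3.84 and Col11a1 from 1.49 to 2.74 over the alternatives. The cause of these changes was not tested.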

Other observations

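At the finer clustering resolution of 2, a cluster of 25 TRN-table nuclei met the marker rule for oligodendrocyte precursors and was named oligodendrocyte precursor-like. It held Col11a2 in 72% of its nuclei (156.4 TPM), Col9a3 in 44% (268.6 TPM), Col27a1 in 44% (63.3 TPM) and Col5a3 in 32% (125.9 TPM). Col16a1 was found in 36%, Col9a2 in 28%, Lamc1 and Col20a1 in 24% each and Lama4, a vessel laminin chain, in 20% (55.5 TPM).

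The 33 nuclei of the unnamed cluster in the unselected TRN sort held Col11a2 in 42.4%, Col9a3 in 39.4% (771.8 TPM) and Col27a1 in 33.3%. They can in part be the nuclei of the precursor-like cluster above. The 28 glutamatergic-like hippocampal nuclei without a sort label held Col4a2 in 75%, Lamb1 in 60.7% and Col4a1 in 53.6%.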
